A study of Mus musculus with 3 samples.

Results

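The cyclin-dependent kinase (CDK) inhibitors and their target protein Rb1 were followed across the cell types of mouse blood, by taking every row of the 3 count matrices whose symbol was Cdkn1a, Cdkn1b, Cdkn1c, Cdkn2a, Cdkn2b, Cdkn2c, Cdkn2d or Rb1. These are 8 of 32285 genes measured, and each symbol matched 1 row in each library. The members were chosen by name as genes used to mark quiescence or senescence, and the rule itself uses no measured value. Peripheral blood mononuclear cells (PBMCs) of female C57BL/6 mice were measured by single-cell RNA sequencing in droplets, and each group gave 1 library. The groups were young mice of 8 weeks, aged mice of 16 months, and aged-GA mice of 16 months that had received glycyrrhizic acid (GA), a triterpenoid of licorice root, for 1 month. According to the methods GA was injected into the tail vein and control mice received PBS there, whereas the labels give no treatment for the young and aged mice. The study describes several mice in each group, and nothing used here ties a cell to its mouse, so each group is 1 library and no test between groups could be made.

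Cell division is driven by cyclins bound to CDKs, which phosphorylate the retinoblastoma protein Rb1 and so release the E2F transcription factors that switch on genes of DNA replication. Inhibitors of the Cip/Kip family (Cdkn1a, or p21; Cdkn1b, or p27; Cdkn1c, or p57) bind cyclin-CDK complexes broadly, and those of the INK4 family (Cdkn2a, Cdkn2b, Cdkn2c and Cdkn2d) bind Cdk4 and Cdk6. Cdkn1b is known for holding resting lymphocytes out of the cycle, Cdkn1a for its induction by p53 and during myeloid differentiation, and Cdkn2a for its use as a marker of senescence. The Cdkn2a locus makes the INK4 protein Ink4a and, from a start site farther upstream and in another reading frame, the protein Arf, which stabilises p53. Both transcripts share their last exons, and the libraries count the 3' end of transcripts, so Ink4a and Arf cannot be told apart in these counts. Rb1 is not an inhibitor of CDKs but the pocket protein on which their control acts.

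By the GENCODE annotation of GRCm38, Cdkn1a lies at chr17:29090976-29100727 on the plus strand, Cdkn1b at chr6:134920401-134925513 on the plus strand and Cdkn1c at chr7:143458339-143461050 on the minus strand. Cdkn2a, at chr4:89274471-89294653, and Cdkn2b, at chr4:89306299-89311039, are neighbours on the minus strand, and Cdkn2c lies on the same chromosome and strand at chr4:109660876-109667189. Cdkn2d, at chr9:21288410-21291407, and Rb1, at chr14:73183673-73325822, are on the minus strand. The 3 upstream windows below are shown because Cdkn1a and Cdkn2a carry most of the results, and because the 2 starts of Cdkn2a are what the 3' counts cannot separate. Each is the 250 bases before an annotated start, 5' to 3', from RefSeq on GRCm38.p6, and capitals mark matches to the searched letters.
Cdkn1a, chr17:29090729-29090978, plus strand: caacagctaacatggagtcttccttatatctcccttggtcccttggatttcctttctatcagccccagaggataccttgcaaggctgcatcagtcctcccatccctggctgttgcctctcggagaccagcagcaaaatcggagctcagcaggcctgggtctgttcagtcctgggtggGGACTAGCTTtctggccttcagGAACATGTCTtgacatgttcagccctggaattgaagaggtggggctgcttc
Cdkn2a, distal start (Arf), chr4:89294620-89294869, minus strand: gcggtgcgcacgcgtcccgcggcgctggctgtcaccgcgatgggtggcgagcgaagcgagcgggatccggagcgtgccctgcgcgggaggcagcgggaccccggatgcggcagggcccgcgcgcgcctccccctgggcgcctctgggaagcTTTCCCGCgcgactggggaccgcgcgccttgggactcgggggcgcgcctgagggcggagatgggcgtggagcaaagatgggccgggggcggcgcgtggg
Cdkn2a, proximal start (Ink4a), chr4:89282193-89282442, minus strand: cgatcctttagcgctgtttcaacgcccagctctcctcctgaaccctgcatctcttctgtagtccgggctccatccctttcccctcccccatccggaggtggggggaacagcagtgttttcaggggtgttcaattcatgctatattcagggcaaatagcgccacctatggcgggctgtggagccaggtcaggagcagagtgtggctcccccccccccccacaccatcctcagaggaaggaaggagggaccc
The letters TTTCCCGC and TTTGGCGC, forms of the E2F site, were searched on both strands, and the p53 half-site consensus, which is its own reverse complement and shares no match with the E2F letters, was searched once. The distal Cdkn2a window held 1 E2F match and the proximal one none, against 1.30% of 32851 windows of the same length that held one. The Cdkn1a window held 2 p53 half-site matches, against 0.259% of windows with 2 or more and 7.13% with at least 1. The window of a second annotated Cdkn1a start, chr17:29093519-29093768, held none. Among the other windows not shown, that of Cdkn2d held 1 p53 half-site match, and the rest held no match of either kind. A match is a match of letters and no measured binding. In all, 6 of the 8 members had a window, and Cdkn1c and Rb1 had none in the table used.

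The libraries held 10842 barcodes in young mice, 16038 in aged mice and 17332 after GA. Of these, 8851, 10238 and 12648 cells passed filters set after the study's methods. The study reports other cell numbers for each group, so its set of cells was not reproduced. Medians of 4671, 3810.5 and 4752 unique molecular identifiers (UMIs, 1 for each captured transcript) were counted per kept cell. Cells were assigned to blood cell types by a gate, a rule on marker genes that used no member, and 8223, 9105 and 10852 cells were gated. The libraries differed widely in their make-up. Monocytes were 0.667%, 11.4% and 2.58% of kept cells in young, aged and aged-GA mice. Neutrophils, which a mononuclear preparation is meant to remove, were 0.169%, 8.78% and 4.72%. Red-cell RNA was present as well, and haemoglobin took 3.11%, 11.04% and 7.33% of the UMIs of gated B cells. A level below is the UMIs of a gene per 1000000 UMIs (CPM) of the same cells. Brackets give exact Poisson 95% intervals for levels, and for ratios and folds exact 95% intervals of the split of UMIs. They cover counting error only and treat UMIs as independent, though several can come from 1 cell. Levels are compared within a gene and not between genes.

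Cdkn1a was a gene of monocytes, basophils and, at a lower level, mature neutrophils and natural killer (NK) cells in these libraries, and was scarce in B cells and naive T cells. In nonclassical monocytes, the patrolling subset, its level was 440 CPM (365–526) in young mice, 291 CPM (270–313) in aged mice and 283 CPM (252–316) in aged-GA mice. The young value rests on 120 UMIs in 55 cells. Classical monocytes, the inflammatory subset, held 261 CPM (249–273) in aged mice and 253 CPM (224–283) after GA, and the young library had 2 such cells. Basophils of aged mice held 225 CPM (180–278), a level whose interval overlapped that of classical monocytes. Thus 3 myeloid types stood at the top of the order in aged mice, with every other gate below them. Mature neutrophils followed at 74.3 CPM in aged mice and 66.0 CPM after GA, and immature neutrophils at 20.1 and 18.1 CPM. Among lymphocytes NK cells were highest in aged mice, at 44.4 CPM in young mice, 50.8 CPM in aged mice and 26.4 CPM after GA.

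In B cells Cdkn1a reached 8.70, 7.65 and 5.91 CPM in young, aged and aged-GA mice. Naive CD8 T cells held 4.94, 7.62 and 4.59 CPM, and naive CD4 T cells 6.62, 3.98 and 6.01 CPM. These levels stood far under those of monocytes, and the log2 ratio of nonclassical monocytes over B cells was 5.51 in young mice, 5.08 in aged mice and 5.36 after GA. After each cell was thinned to 1000 UMIs, 32.7%, 24.9% and 28.5% of nonclassical monocytes had a Cdkn1a UMI, against 0.98%, 0.63% and 0.67% of B cells. The B-cell share is given as a low reference, at median depths of 3442, 3156 and 3836.5 UMIs against 4053, 4095 and 4488 UMIs in nonclassical monocytes, and how much of it is free RNA was not measured. In memory CD4 T cells 80.1 CPM (48.2–125) was counted in young mice, against 24.4 CPM in aged mice and 23.6 CPM after GA. The young value was 19 UMIs from 6 of 37 cells, and 1 cell gave 5 of them.

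**Figure D1:**
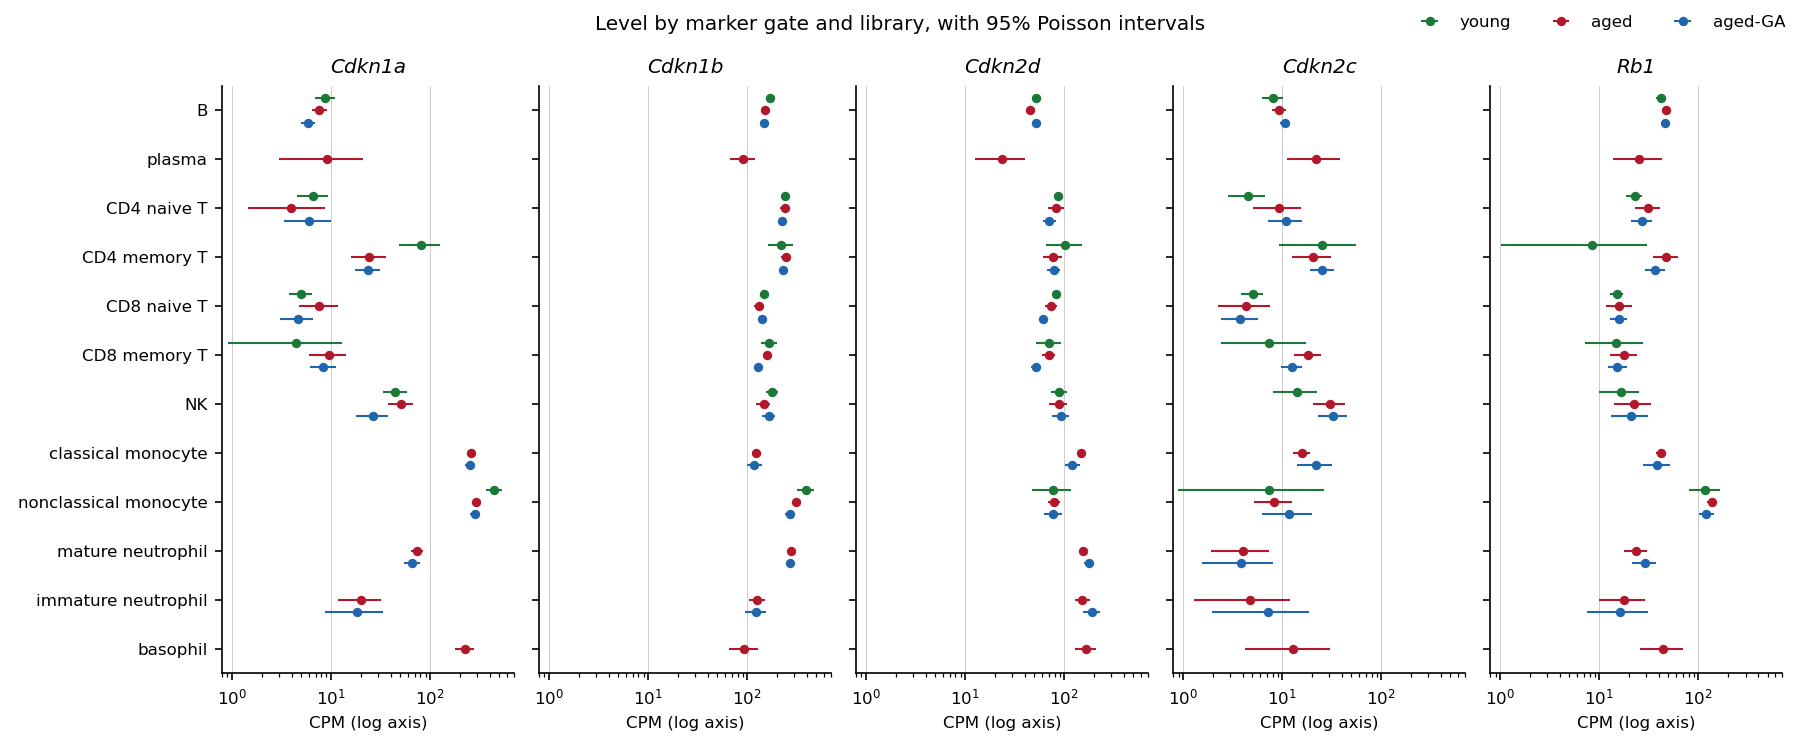
Levels of Cdkn1a, Cdkn1b, Cdkn2c, Cdkn2d and Rb1 by gate in the young, aged and aged-GA libraries, in CPM on a log axis, as points with exact Poisson 95% intervals, for gates of at least 30 cells. The erythroid gate is not shown. Cdkn1a and Rb1 were highest in nonclassical monocytes, and for Cdkn1a the interval overlapped that of classical monocytes in aged and aged-GA mice. Cdkn2d was highest in basophils and neutrophils of aged mice and in neutrophils after GA, gates too small to show in young mice. In aged mice the Cdkn2d interval of classical monocytes overlapped theirs.

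Cdkn1b was counted in every gate of at least 30 cells, with a far narrower range. Leaving out erythroid cells, whose UMIs are nearly all haemoglobin, its levels in aged mice ran from 91.02 CPM in plasma cells to 310 CPM (289–333) in nonclassical monocytes. The nonclassical level was 389 CPM in young and 274 CPM in aged-GA mice, and classical monocytes held only 123 CPM in aged mice and 118 CPM after GA. The log2 ratio of nonclassical over classical monocytes was therefore 1.33 (1.19 to 1.47) in aged mice and 1.20 after GA, while for Cdkn1a it was 0.16 in both. Nonclassical monocytes are known to arise from classical ones. A like step separated neutrophils: mature cells held 276 CPM in aged mice and 269 CPM after GA, and immature cells 126 and 121 CPM. For mature over immature neutrophils the log2 ratio was 1.12 and 1.14 for Cdkn1b and 1.84 and 1.81 for Cdkn1a. These steps are in CPM and not in UMIs per cell, and the cells differed in total UMIs. In aged and aged-GA mice immature neutrophils had medians of 6665.5 and 7438.5 UMIs, against 2234 and 2444 in mature ones. Classical monocytes had 9833.5 and 9358 UMIs, against 4069 and 4478 in nonclassical ones. The part of total UMIs in these steps was not tested.

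Among lymphocytes Cdkn1b was higher in CD4 than in CD8 T cells. Naive CD4 T cells held 242 CPM (229–256) in young mice, 239 CPM (215–265) in aged mice and 223 CPM (205–243) after GA. Naive CD8 T cells held 146 CPM (140–153), 132 CPM (118–146) and 140 CPM (131–150). The intervals of the 2 cell types did not overlap in any library, and the log2 ratio of CD4 over CD8 was 0.72, 0.86 and 0.67. Memory CD4 T cells, at 219, 247 and 231 CPM, and memory CD8 T cells, at 167, 160 and 129 CPM, kept this order of CD4 above CD8. The intervals of the memory cells overlapped in young mice, at 164–287 CPM for CD4 and 137–201 CPM for CD8. They did not overlap in aged or aged-GA mice. B cells held 172, 153 and 148 CPM and NK cells 179, 146 and 165 CPM.

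Cdkn1c, the inhibitor best known from placenta and from quiescent stem cells, was nearly silent in blood, with 123 UMIs in young mice, 56 in aged mice and 91 after GA. Over all kept cells the fold of aged over young was 0.409 (0.292–0.565). T cells held 71.5% of the young UMIs, beside 62.2% of the UMIs of all genes, and NK cells had the highest young level, at 4.93 CPM (1.81–10.7). In young mice 35 UMIs lay in naive CD8 and 20 in naive CD4 T cells, and these gates held 2 and 3 UMIs in aged mice and 4 and 6 after GA. Naive T cells were also fewer there: 1885 CD8 cells were gated in young mice, 420 in aged mice and 812 after GA. As levels, naive CD8 T cells held 2.93 CPM (2.04–4.08) in young mice, 0.725 CPM (0.0879–2.62) in aged mice and 0.656 CPM (0.179–1.68) after GA. The young interval overlapped that of aged mice and not that of aged-GA mice. In aged-GA mice 1 cell gave 8 of the 91 UMIs.

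Of the INK4 genes Cdkn2d, or p19Ink4d, was the most broadly detected, and it was highest in granulocytes and classical monocytes. Mature neutrophils held 155 CPM (140–172) in aged mice and 178 CPM (159–199) after GA. Immature neutrophils held 152 and 190 CPM and basophils of aged mice 166 CPM. In CPM the step of Cdkn1a and Cdkn1b between immature and mature neutrophils was thus not seen for Cdkn2d. The log2 ratios of Cdkn2d were 0.03 and −0.10. In monocytes the order was opposite to that of Cdkn1b. Classical cells held 146 CPM in aged mice and 121 CPM after GA, and nonclassical cells 77.0, 78.8 and 77.7 CPM in young, aged and aged-GA mice. Naive CD4 T cells held 86.2, 82.8 and 70.6 CPM, NK cells 88.7, 87.9 and 92.8 CPM and B cells 52.5, 45.6 and 52.1 CPM. Plasma cells of aged mice, at 23.7 CPM, were lowest apart from erythroid cells.

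Cdkn2c, or p18Ink4c, an inhibitor known from the terminal differentiation of plasma cells, was present at lower levels and was higher in NK and memory T cells than in naive T cells. NK cells held 14.0 CPM (8.14–22.4) in young mice, 30.3 CPM (20.6–43.0) in aged mice and 32.8 CPM (23.0–45.4) after GA. Memory CD4 T cells held 25.3, 20.5 and 25.5 CPM, against 4.48, 9.28 and 10.8 CPM in naive CD4 T cells. Memory CD8 T cells held 7.44, 18.2 and 12.5 CPM, against 5.02, 4.35 and 3.77 CPM in naive CD8 T cells. For memory over naive CD8 T cells the log2 ratio was 0.49, 1.85 and 1.51, and the young memory value rests on 5 UMIs. Plasma cells of aged mice held 21.8 CPM (11.3–38.2), and the interval overlapped those of memory T and NK cells. Classical monocytes held 15.8 CPM in aged mice and 21.8 CPM after GA. Erythroid cells held 1.27, 4.27 and 8.15 CPM in young, aged and aged-GA mice. Haemoglobin took 93.0%, 93.5% and 92.6% of their UMIs, so they are not ranked with the other types.

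Cdkn2b, whose gene lies beside Cdkn2a and which is known as a target of TGF-beta signalling, was counted 28, 22 and 58 times in young, aged and aged-GA cells. These UMIs came from 27, 19 and 54 cells, with at most 3 in 1 cell. In monocyte and neutrophil gates 1 UMI was found in all, in a mature neutrophil of aged-GA mice. Over all kept cells the fold of aged-GA over aged was 1.87 (1.13–3.21), and that of aged over young was 0.705 (0.384–1.28).

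Cdkn2a was the rarest member, with 2 UMIs in 2 cells in young mice, 46 UMIs in 37 cells in aged mice and 50 UMIs in 31 cells after GA. Over all kept cells these were 0.041, 0.855 and 0.659 CPM. The fold of aged over young was 20.6 (5.40–176), and that of aged-GA over aged was 0.771 (0.506–1.18). The first fold was 8.23 (3.01–31.5) when every barcode was counted, which added 2 UMIs in young and none in aged mice. It was 14.7 (3.75–127) without cycling cells. Both of these settings were chosen after the data were seen. A single cell gave up to 4 of the 46 and up to 7 of the 50 UMIs, and the young library rests on 2. These folds are over whole libraries and so join the numbers of cells of each type with the levels within them. Plasma cells numbered 3, 32 and 27 and memory CD8 T cells 96, 427 and 751 in young, aged and aged-GA mice. The part of cell make-up in the folds was not tested.

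Of the Cdkn2a UMIs of gated cells nearly all lay in lymphocytes and plasma cells, with 1 in a basophil of aged mice, and 10 of 46 UMIs in aged mice and 20 of 50 after GA lay in cells of no gate. Memory CD8 T cells held 10 UMIs in aged mice and 9 after GA, which are 4.14 CPM (1.99–7.62) and 1.64 CPM (0.748–3.11), and plasma cells held 5 and 3 UMIs, at 9.10 and 5.03 CPM. Young memory CD8 T cells held 0 CPM (0–5.49), an interval that overlapped the aged one. A strict gate that allows no marker of another type left 30 of the 427 aged memory CD8 T cells, with 131982 UMIs and none of Cdkn2a, too few to show a level of this size. In B cells 1, 14 and 10 UMIs were counted in young, aged and aged-GA mice. No UMI was found in the naive CD4 T cells of any library, nor in any monocyte or neutrophil gate. For the 668 classical monocytes of aged mice a count of 0 allows up to 0.439 CPM, so Cdkn2a was not detectable there at this depth. Many of the UMIs came from dividing cells, which are described next.

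Cycling cells, those with UMIs of at least 2 markers of the S, G2 or M phase, numbered 43 in young mice, 144 in aged mice and 142 after GA. They were deep, with medians of 11816, 12194 and 12890.5 UMIs, against 4660, 3768.5 and 4709.5 UMIs in the other cells, so levels rather than shares of cells are compared. Cdkn2a was higher in cycling cells, at 7.34 CPM (4.01–12.3) against 0.617 CPM (0.422–0.871) in aged mice and 9.10 CPM against 0.407 CPM after GA. Cycling cells made up 1.41% and 1.12% of kept cells and 3.55% and 2.90% of all UMIs, and held 30.4% and 40.0% of the Cdkn2a UMIs. Among the cells with a Cdkn2a UMI, 12 of 37 in aged mice and 9 of 31 in aged-GA mice were cycling. Those cells had medians of 9580 and 9324 UMIs, and both a Cdkn2a UMI and the marker UMIs that define a cycling cell are found more readily in deep cells. The part of depth in the result was not tested. In T cells, 59 of which were cycling in each aged library, 8 of 15 UMIs in aged mice and 5 of 15 after GA lay in cycling cells. In aged-GA mice 10 UMIs came from 3 cycling cells in no gate.

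Over all kept cells together, Cdkn1b was lower in cycling cells of all 3 libraries. Its levels were 91.8 against 172 CPM in young mice, 113 against 172 CPM in aged mice and 103 against 148 CPM after GA. The log2 ratios were −0.90, −0.60 and −0.52. Cdkn2c was higher, with log2 ratios of 1.07, 1.17 and 0.91, and the young ratio rests on 8 UMIs in cycling cells. Within T cells alone, Cdkn2c had log2 ratios of 2.08 (1.55–2.78) in aged mice and 1.48 (0.84–2.24) after GA, and Cdkn2d 0.92 (0.60–1.25) and 0.63 (0.26–0.99). Cdkn2a was at 12.7 CPM in cycling against 0.604 CPM in other T cells of aged mice, and at 6.95 against 0.415 CPM in those of aged-GA mice. These cycling values rest on 8 UMIs in 7 cells and on 5 UMIs in 2 of 59 cells. The Cdkn1b ratios in T cells were −0.57 and −0.52, so that Cdkn1b was lower, and Cdkn2c and Cdkn2d higher, in dividing T cells of both aged libraries. Cells of no gate were the only others with at least 30 cycling cells. There the Cdkn1b ratio was −0.43 (−0.80 to −0.09) in aged mice and 0.07 (−0.23 to 0.36) after GA. Their Cdkn2c ratios were −0.15 (−1.65 to 1.00) and 0.68 (−0.21 to 1.56). Of the 43 young cycling cells, 6 were erythroid, and the part of cell make-up in the pooled ratios was not tested. Cdkn1a had no common direction, with log2 ratios over all kept cells of 1.02, −0.49 and 0.06.

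**Figure D2:**
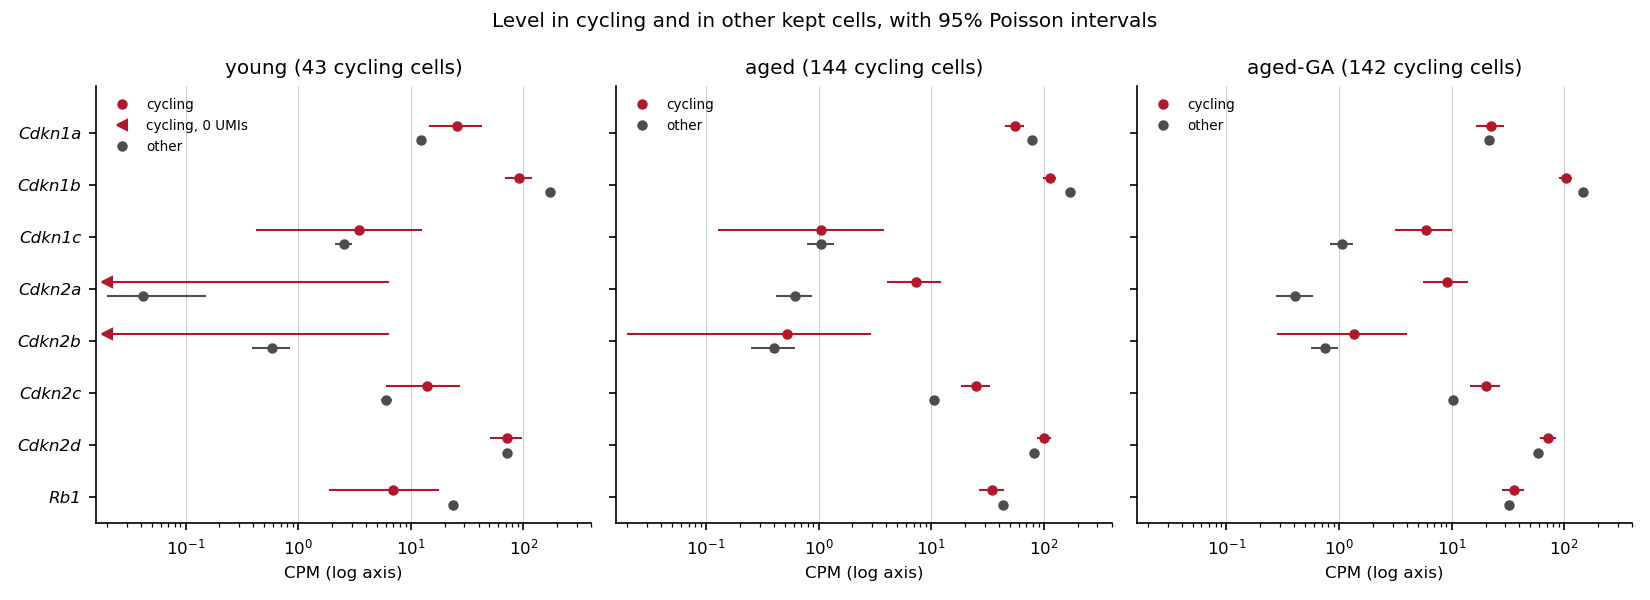
Levels of Cdkn1a, Cdkn1b, Cdkn1c, Cdkn2a, Cdkn2b, Cdkn2c, Cdkn2d and Rb1 in cycling and other kept cells of each library, in CPM, with exact Poisson 95% intervals. Cdkn1b was lower in cycling cells of all 3 libraries, and Cdkn2a was higher in both aged libraries, where 14 and 20 UMIs lay in cycling cells.

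Rb1 was highest in nonclassical monocytes, at 117 CPM (80.3–166) in young mice, 137 CPM (123–153) in aged mice and 121 CPM (101–143) after GA. Classical monocytes held 42.3 CPM in aged mice and 38.3 CPM after GA, so the log2 ratio between the monocyte subsets was 1.68 and 1.63. The same step was seen for Cdkn1b and the opposite one for Cdkn2d. B cells held 41.9, 47.1 and 46.2 CPM and naive CD8 T cells 15.1, 16.0 and 15.8 CPM. In aged mice, leaving out erythroid cells, the gates from naive CD8 T cells to memory CD4 T cells ran from 16.0 to 47.7 CPM. Each interval in this run overlapped the next, and only nonclassical monocytes stood clear above it.

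Over all kept cells the libraries differed most in Cdkn1a among the members with 1000 or more UMIs in aged mice. The level was 12.5 CPM in young mice, 77.0 CPM in aged mice and 21.3 CPM after GA, a fold of 6.16 (5.66–6.72) for aged over young and of 0.277 (0.261–0.293) for aged-GA over aged. In nonclassical monocytes the level was lower in aged than in young mice, as given above. Monocytes held 22.9% of the Cdkn1a UMIs in young mice, 62.3% in aged mice and 38.6% after GA, while T cells held 42.1%, 4.49% and 14.4%. Cells in no gate held 11.3%, 21.7% and 26.9%. In these the level was 14.3, 98.7 and 26.6 CPM, and outside the myeloid gates as a whole it was 9.47, 31.5 and 11.96 CPM. The latter level includes the cells of no gate, which gave 68 of its 453, 900 of its 1272 and 435 of its 850 UMIs. A level over a whole library joins the number of cells of a type with the level within them. Within all monocyte gates together the Cdkn1a level was 454 CPM (381–536), 268 CPM (258–279) and 270 CPM (249–292) in young, aged and aged-GA mice. The monocyte share of kept cells, given above, was highest in aged mice, and the part of this share in the result was not tested.

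**Figure D3:**
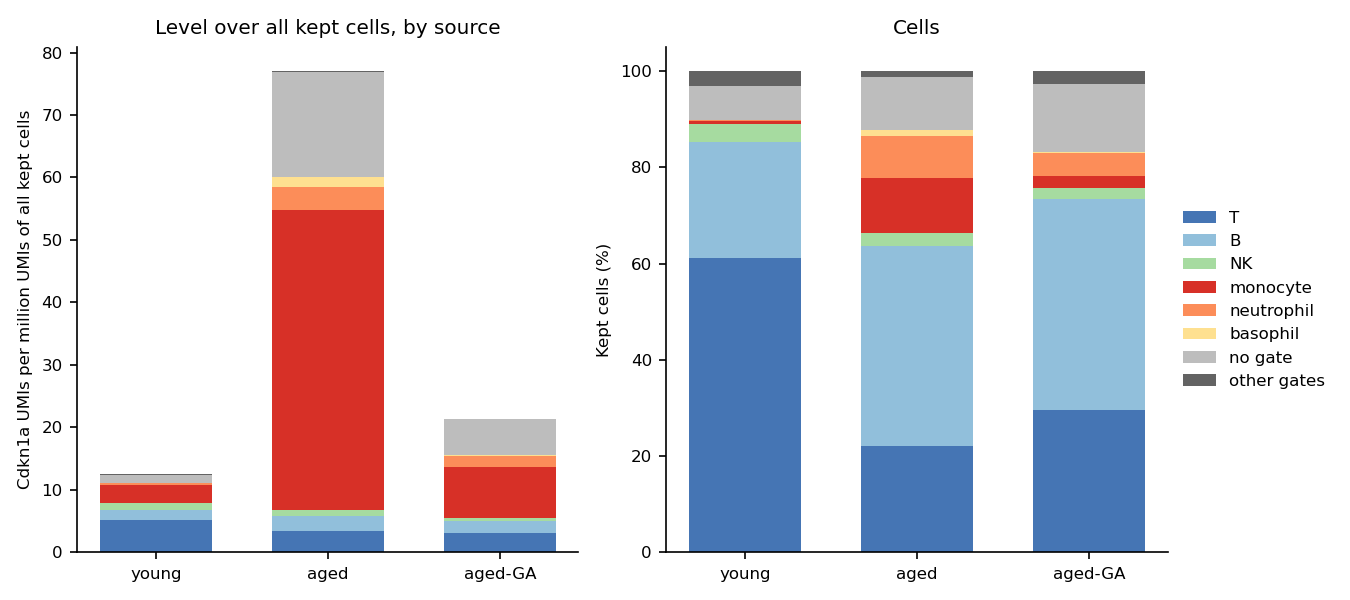
Cdkn1a in each library, as the level over all kept cells in CPM divided by the cell type whose UMIs make it up, beside the share of kept cells of each type in percent. Monocyte gates contributed 2.86, 48.0 and 8.23 CPM in young, aged and aged-GA mice.

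Cdkn1a of T cells outside the naive and memory gates was likewise highest in aged mice, at 11.5 CPM in young mice, 24.5 CPM in aged mice and 11.1 CPM after GA, with log2 ratios of 1.03 (0.71–1.46) and −1.08 (−1.56 to −0.74). The summed level of the 6 monocyte markers in these T cells was 17, 269 and 69 CPM. It was 52, 240 and 122 CPM in NK cells, 10, 104 and 50 CPM in naive CD8 T cells and 153, 389 and 274 CPM in B cells. In the young library 1 of the 6 markers was at 0 in each of these gates (Clec4a1 in both T gates, Csf1r in NK cells and Cx3cr1 in B cells), and none was at 0 in the aged libraries. In the T cells outside the naive and memory gates both the markers and Cdkn1a were highest in aged mice, and the part of the markers in the result was not tested. In NK cells both were lower in aged-GA than in aged mice, where Cdkn1a had a log2 ratio of −0.92 (−1.65 to −0.26), from 29 and 52 UMIs. From young to aged mice the markers of NK cells were higher, while Cdkn1a was 44.4 CPM (33.3–57.9) and 50.8 CPM (37.9–66.6), with overlapping intervals. In naive CD8 T cells Cdkn1a, like the markers, was highest in aged mice, at 4.94, 7.62 and 4.59 CPM, with overlapping intervals. In B cells the markers were highest in aged mice, and Cdkn1a was 8.70, 7.65 and 5.91 CPM, with overlapping intervals.

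Within cell types, pairs of a member and a gate past 2-fold between libraries were counted. For aged over young, 22 pairs of a member and a gate had at least 100 UMIs over both libraries, in gates of at least 30 cells in each, and 0 of 22 were past 2-fold, against 4.04% of 33939 pairs over all genes. For aged-GA over aged 0 of 35 pairs were past 2-fold, against 0.617% of 49796 pairs. Such a background leaves room for few calls among so few pairs, and the counts of 0 do not set the members apart from other genes. T cells outside the naive and memory gates are a mixed remainder and were not counted here, though Cdkn1a was past 2-fold there in both comparisons, as given above. With a minimum of 30 UMIs, 5 of 34 pairs (14.7%) were past 2-fold for aged over young, against 7.67% of 54330 pairs over all genes. For aged-GA over aged 0 of 46 were, against 2% of 77642 pairs. Both comparisons use the aged library.

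Each of the 5 pairs rests on few UMIs in one of the libraries. Cdkn1a in memory CD4 T cells, with a log2 ratio of −1.68, and Rb1 in the same gate, at 2.37 with 49 UMIs in aged and 2 in young mice, came from the 37 young cells of that gate. Cdkn1c in naive CD8 T cells, at −1.19, had 2 and 35 UMIs. Cdkn2c was higher in aged mice in memory CD8 T cells, at 1.19 with 44 and 5 UMIs, and in NK cells, at 1.06 with 31 and 17 UMIs. The interval of the NK ratio (0.22 to 2.06) lay above 0, and that of memory CD8 T cells (−0.04 to 2.98) did not. Cdkn2c in NK cells of aged-GA mice was near the aged level, with a log2 ratio of 0.11.

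Smaller differences were counted where UMIs were many. Aged nonclassical monocytes held less Cdkn1a than young ones, with a log2 ratio of −0.60 (−0.88 to −0.31), and less Cdkn1b, at −0.32 (−0.62 to −0.02), while all genes tested in that gate had a median of 0.01. As means of per-cell CPM, which weight the 55 young cells equally, these ratios were −0.36 and −0.17. Aged B cells held less Cdkn1b, at −0.17 (−0.27 to −0.08), and less Cdkn2d, at −0.20 (−0.37 to −0.03), beside a median of 0.17 over all genes there. Without haemoglobin, mitochondrial and ribosomal protein genes in the total, Cdkn1b of B cells was 283, 256 and 241 CPM in young, aged and aged-GA mice, with the young level again highest. The strict gate, with 944 young and 598 aged B cells, gave −0.042 for Cdkn1b and −0.53 for Cdkn2d, and the mean of per-cell CPM gave −0.090 for Cdkn1b. In memory CD8 T cells of aged-GA mice Cdkn1b, at −0.32 (−0.50 to −0.14), and Cdkn2d, at −0.42 (−0.70 to −0.14), were lower than in aged mice. Cdkn2d was also lower in naive CD8 T cells, at −0.27 (−0.52 to −0.02), and in classical monocytes, at −0.27 (−0.54 to −0.02). In B cells it was higher, at 0.19 (0.06 to 0.32). Under the strict gate these ratios kept their direction, at −0.78 for Cdkn1b and −0.17 for Cdkn2d in memory CD8 T cells, −0.50 in naive CD8 T cells and 0.57 in B cells. That gate left 30 aged and 70 aged-GA memory CD8 T cells, 45 and 130 naive CD8 T cells and 598 and 843 B cells. In so few T cells a direction alone does not show a difference beyond counting error. Too few classical monocytes remained for a ratio. All of these are under 2-fold, and how much 2 libraries of 1 group would differ was not measured.

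**Figure D4:**
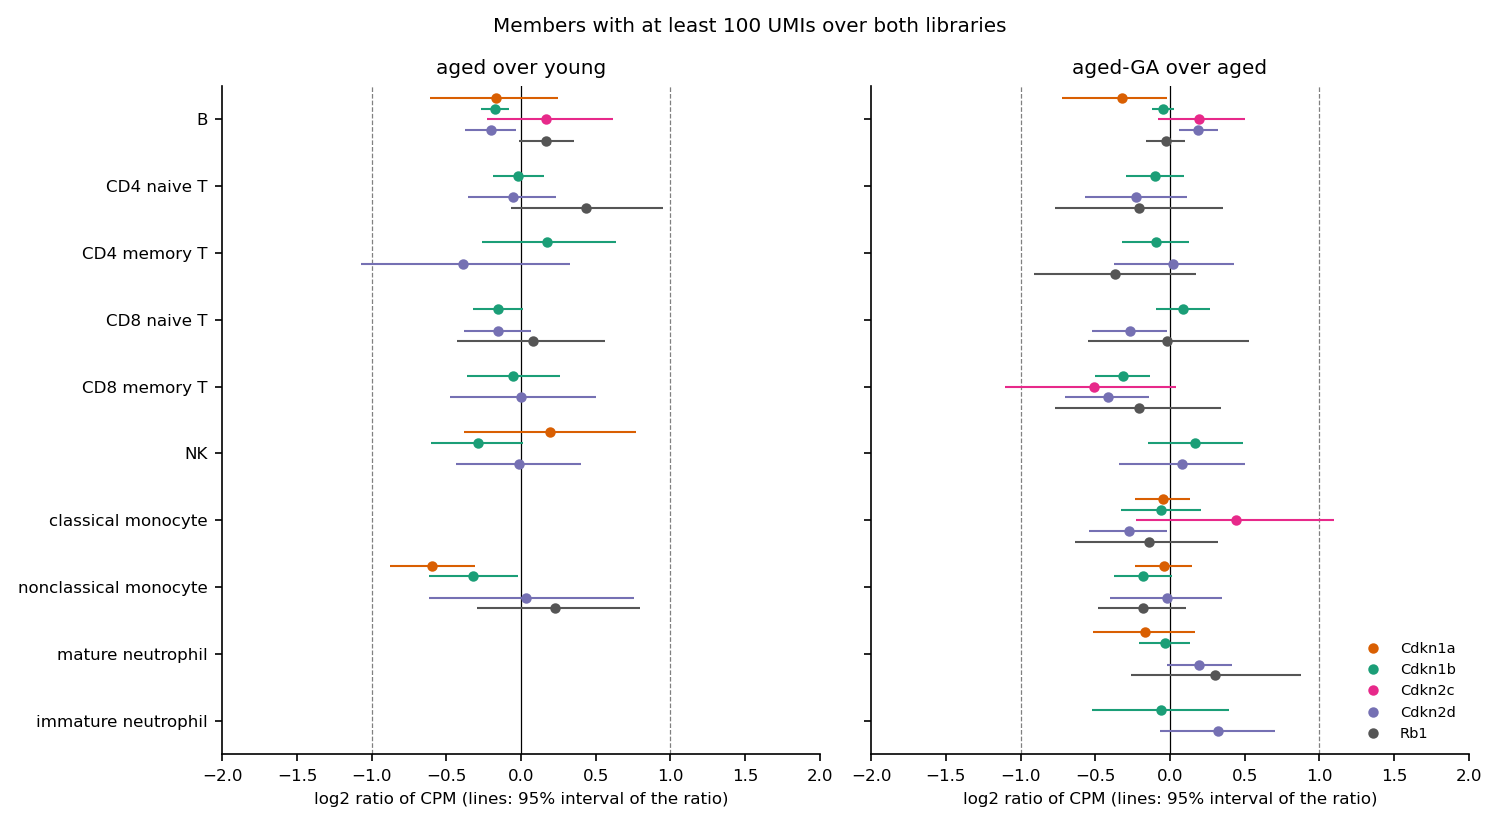
Log2 ratios of members between libraries by gate, aged over young and aged-GA over aged, with exact intervals that cover counting error only; dashed lines mark 2-fold. T cells outside the naive and memory gates are not shown. Among the gates shown, no pair with at least 100 UMIs over both libraries lay past 2-fold.

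The genes that the inhibitors act on and that act on them were described with the same limit of 100 UMIs. Of the CDK and cyclin partners, 1 of 24 pairs of a gene and a gate was past 2-fold for aged over young and 0 of 34 for aged-GA over aged, shares near the 4.04% and 0.617% over all genes. The 1 pair was Cdk6, a kinase that INK4 proteins bind, in memory CD8 T cells, with a log2 ratio of 1.26 and levels of 25.3 CPM in young and 62.2 CPM in aged mice. Of the pocket proteins and E2F factors 0 of 24 and 0 of 34 pairs were past 2-fold. Of the genes upstream of the inhibitors, 2 of 38 were higher and 1 lower for aged over young, together 7.89% against 4.04% over all genes. Mdm2, the ligase that degrades p53, was higher in aged nonclassical monocytes, at 68.9 against 33.0 CPM, with 9 UMIs in young mice. Ezh2, a histone methyltransferase that silences the Cdkn2a locus, was higher in aged memory CD8 T cells, at 51.0 against 22.3 CPM. It was lower again in aged-GA mice, at 24.2 CPM. This was the only 1 of 55 pairs of that list past 2-fold for aged-GA over aged, against 0.617% over all genes. Myc was lower in aged B cells, at 40.1 against 96.0 CPM.

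Of the quiescence genes 7 of 42 pairs were past 2-fold for aged over young, all lower in aged mice, against the 4.04% of pairs of all genes past 2-fold in either direction. The median log2 ratio over the pairs was −0.46, and the medians over all genes in the gates of blood leukocytes lay between −0.00 and 0.18. Txnip, an inhibitor of thioredoxin that is high in resting cells, accounted for 5 of the 7. It was lower in naive CD4 T cells, at −1.44, in memory CD4 T cells, at −1.62, in naive CD8 T cells, at −1.10, in NK cells, at −1.43, and in nonclassical monocytes, at −1.53. Tob1, an antiproliferative factor, accounted for the other 2, at −1.32 in B cells and −1.29 in NK cells. For aged-GA over aged 0 of 61 pairs were past 2-fold, against 0.617% over all genes, with a median of 0.26. Genes induced by stress during cell preparation were lower in aged mice as well, with a median of −0.47. Of these, 3 of 39 pairs (7.69%) were past 2-fold, against 4.04% over all genes, and were Junb, Hspa1b and Ier2 in B cells. For aged-GA over aged the median of the stress genes was 0.28. There 3 of 57 pairs (5.26%), all Egr1, were lower past 2-fold, against 0.617% over all genes in either direction. Both lists thus had a median below 0 for aged over young and above 0 for aged-GA over aged. The median mitochondrial share of UMIs, a sign of RNA quality, was also lowest in aged mice, at 5.06%, 1.86% and 3.79% over all barcodes and 5.56%, 3.49% and 4.77% in B cells. The part of the stress genes and of RNA quality in the result was not tested.

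Of the genes associated with the senescent secretory state, 14 pairs were tested for aged over young, and 2 were higher and 2 lower past 2-fold, against the 4.04% over all genes. The higher ones were Il1b and Cxcl2 in B cells, with 278 and 258 UMIs in aged against 6 and 3 in young mice. Both are cytokine genes of myeloid cells, and monocyte markers in B cells were 389 against 153 CPM, as given above, and their part in the result was not tested. The lower ones were Cxcl2 in nonclassical monocytes, at −1.48, and Tnf in naive CD8 T cells, at −1.30. For aged-GA over aged 2 of 24 pairs were past 2-fold, against 0.617% over all genes, Il1b in classical monocytes, at 1.16, and Cxcl2 in nonclassical monocytes, at 2.11.

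The genes whose levels were most like each member's were sought over pairs of gate and library, among 8926 genes with at least 500 UMIs. Erythroid cells, in which haemoglobin lowers every other gene, shape such likeness, so values without them were added after the data were seen, over 29 pairs. Cdkn1a was then most like Sptlc2, Ifnar2 and Zfand5, with Pearson's r of 0.93, 0.92 and 0.91. With erythroid cells, over 32 pairs, the nearest genes were Bmpr2, Ehbp1l1 and Tusc1, at 0.92, 0.92 and 0.91. Rb1 was nearest to Htra2 in both, at 0.92 and 0.88. Cdkn2c was nearest to Endod1 in both, at 0.81 and 0.82, and with erythroid cells the linker histone gene Hist1h1b followed, at 0.79. Among the members the r of Cdkn1b and Cdkn2d was 0.86 with and 0.09 without erythroid cells, so that their likeness rested on these. That of Cdkn1a and Rb1 was 0.70 and 0.56. These pairs share libraries and are descriptions.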

How the data were processed

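The 3 PBMC libraries (young, aged, aged-GA) were made with a droplet kit that reads transcript 3' ends. Cell Ranger was run by the authors, and the deposited matrices hold its unnormalized UMI counts for each gene in each barcode. Their headers name version 5.0.0, and the methods name another. The labels give the build as mm10, and the annotation was not given in the sources used here. From the deposited counts, cells were kept, after the study's methods, if they had 200 genes or more, no more than 90% of the highest gene number and under 7.5% mitochondrial UMIs. A cell entered a gate with UMIs of at least 3 of that type's markers and 2 more than of any other type. No doublet caller was run. UMIs were summed per gate and library, and levels are CPM of those cells. Log2 ratios carry a pseudocount of 1 CPM, and their intervals and the folds do not.

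With 1 library per group no test was made. The members and lists were chosen with earlier results of these data known. Named genes are all members, genes of the fixed lists past 2-fold or with the most UMIs, and the 3 most alike genes for members of at least 200 UMIs. Alternatives were other gates, cell filters, denominators, pseudocounts, UMI minimums and thinning depths. Python 3.11.15, numpy 2.4.6, pandas 2.3.3 and scipy 1.17.1 were used, and the code was tested on simulated data. Between libraries 52, 62 and 50 barcodes were shared.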

Additional observations from a re-analysis of the deposited data

Results flagged for a closer look

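Cdkn2d differed between libraries in opposite directions in 2 gates. For aged-GA over aged its log2 ratio was 0.19 in B cells and −0.42 in memory CD8 T cells, a gap of 0.604. The difference was not tested, since each group is 1 library.

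Members were also counted in barcodes left out of all comparisons, those with under 200 genes and over 50% haemoglobin, of which there were 941 in young mice, 5460 in aged mice and 3812 after GA. Cdkn1a had 35 UMIs there in aged mice and 13 after GA. Cdkn1b had 22, 70 and 67 UMIs in young, aged and aged-GA mice, and Cdkn2c had 13, 49 and 33. Cdkn2d had 7, 60 and 36 UMIs and Rb1 16, 56 and 51. These counts were noted because they lie above the 3 counts that a count of 0 allows, and no control barcodes are at hand.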

How the results depend on the processing

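Within a strict gate, which allows no marker of another type, the log2 ratio of Cdkn1b in B cells was −0.042 for aged over young and −0.17 for aged-GA over aged, in place of −0.17 and −0.05, and Cdkn2a in memory CD8 T cells of aged mice was 0 in place of 4.14 CPM, over 131982 UMIs, too few to show a level of 4.14 CPM. With haemoglobin, mitochondrial and ribosomal protein genes left out of the total, Cdkn1a in aged nonclassical monocytes was 393 CPM and Cdkn2d in aged mature neutrophils 199 CPM. As means of per-cell CPM they were 328 and 175 CPM, in place of 291 and 155 CPM. At a minimum of 30 UMIs, 5 pairs in place of 0 were past 2-fold for aged over young, 14.7% of 34 against 7.67% over all genes. The share of cells with a Cdkn1a UMI in aged mice was 0.282% of B cells and 14.0% of nonclassical monocytes at 500 UMIs per cell, and 2.49% and 59.3% without thinning, in place of 0.635% and 24.9%. Under the strict gate 12 ratios left their counting interval and 21 did not, and under all other settings together 1 did. Of 1400 levels 216 did, and of 512 shares 258, all under other thinning depths. No paired analysis was possible because each group is 1 library. Depth limits Cdkn2a, Cdkn2b and Cdkn1c, and young classical monocytes, neutrophils and basophils were too few to compare.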

Other observations

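In the red-cell barcodes left out of the comparisons, Cdkn2c stood at 34.4, 42.6 and 35.1 UMIs per 1000000 UMIs other than haemoglobin in young, aged and aged-GA mice, against 6.92, 12.5 and 12.4 in all kept cells by the same measure. Cdkn1b was lower in these barcodes than in all kept cells, at 58.3, 60.8 and 71.3 against 191, 191 and 174. Rb1 stood at 42.4, 48.6 and 54.2 in these barcodes, given here without its level in kept cells. Cdkn1c in aged-GA mice had 13 of its 91 UMIs in cycling cells, and 1 cell gave 8 UMIs.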
